A study of Homo sapiens with 8 samples.

Results

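Interferon-stimulated genes are genes that a cell switches on when interferon, or its own detection of foreign nucleic acid, signals infection. A set of 37 of them, listed by gene symbol, was followed through cells that had received a control siRNA or an siRNA against TAF3, with and without doxorubicin. The array's gene table listed 54 probes for 35 of the 37 genes. Of these, 30 genes were measured, meaning that at least 1 probe lay above background on at least 2 arrays, out of 12250 named genes measured in all. IFI44L, MX2, OAS2, XAF1 and RSAD2 had probes but did not pass this filter, and STAT2 and USP18 had no listed probe. A gene could pass through the group where it was high, so counts below refer to the 30 measured genes and not to all 37.

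The cells were HCT116, an established human colon carcinoma line, and each of 4 groups was measured on 2 Illumina HumanHT-12 v3 arrays. All cells were transfected, with either a non-targeting siRNA or TAF3 siRNA, and 48 hours later a 24-hour exposure to doxorubicin at 0.5 µM began in some, the rest staying untreated. Doxorubicin is a topoisomerase poison that damages DNA. TAF3 is a subunit of TFIID, the general transcription factor that assembles at promoters, and binds histone H3 trimethylated at lysine 4. The series title asks how this contact takes part in selective gene activation. The 4 groups are thus control siRNA untreated, TAF3 siRNA untreated, control siRNA with doxorubicin and TAF3 siRNA with doxorubicin. The siRNA sequences, their number and the TAF3 protein level are not given in the sources used here. Nothing in the labels says that the 2 arrays of a group came from separate cultures, so p-values measure only the spread between arrays, which may be technical.

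Type I interferons bind the IFNAR1 and IFNAR2 receptor chains, whose kinases JAK1 and TYK2 activate STAT transcription factors. These join IRF9 and bind the interferon-stimulated response element (ISRE), a short motif in the promoters of most of these genes. The products act at successive steps of infection. RNA sensors raise the alarm, IFITM proteins and BST2 act at membranes during entry and release, IFIT proteins and EIF2AK2 block translation, OAS enzymes trigger RNA decay, and ISG15 is attached to other proteins like ubiquitin.

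The number of probes above background was 17428 to 19533 of 48803 per array, with a background threshold of 81.3 to 87.3 units of the deposited linear signal. TAF3 itself checks the labels, but its transcript lay near that threshold. Its measured probe gave 78.1 and 81.4 with control siRNA and 62.7 and 76.0 with TAF3 siRNA in untreated cells, and 89.3 and 101 against 76.6 and 67.3 under doxorubicin. Both TAF3 siRNA arrays were below both control arrays in each treatment, but only the control arrays with doxorubicin lay above background, and neither difference passed limma (adjusted p = 0.653 untreated and 0.167 under doxorubicin). All 7 epithelial markers were measured on 8 arrays, EPCAM at 13259 to 22538. Of the leukocyte markers with a probe, PTPRC and CD3E lay above background on none of 8 arrays. In bulk RNA, fewer cells carrying a transcript and less of it per cell cannot be told apart.

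A single array stood apart in these genes. Untreated control siRNA replicate 1 exceeded replicate 3 in 29 of 30 measured genes, by a median of 0.70 log2, PARP14 being the exception. The difference passed 1 log2 in 9 of 30 genes, against 1.06% of all 16348 features tested. These 9 were IFI44, IFI6, IFIT1, BST2, IFIT2, OASL, IFITM1, IFI27 and ISG15. IFI44, an antiviral protein of the cytoplasm, gave 388 on replicate 1 and 108 on replicate 3, and between 86.6 and 122 on the other 6 arrays. IFIT1, which binds RNA lacking the host cap methylation, gave 861 and 271.

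**Figure D1:**
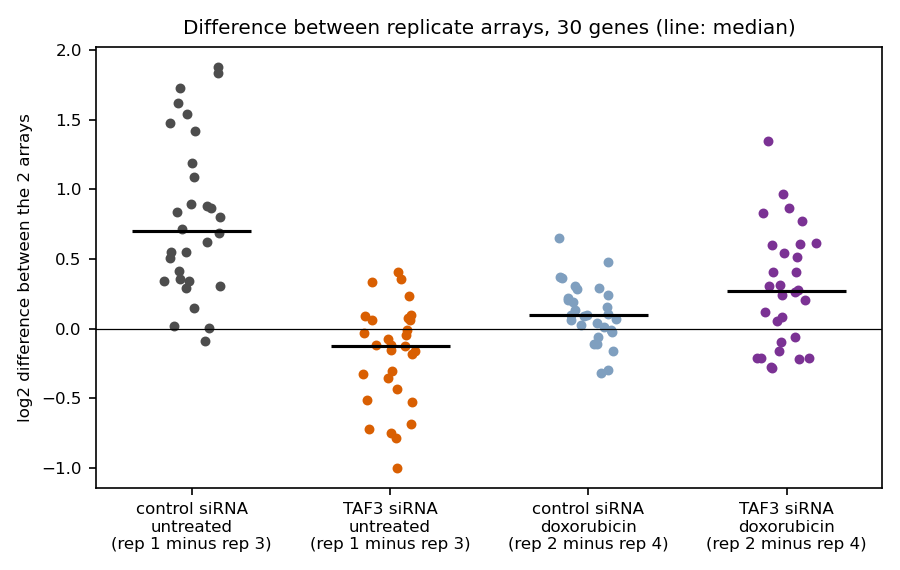
Log2 difference between the 2 replicate arrays of each group (lower minus higher replicate number) for the 30 measured interferon-stimulated genes, 1 point per gene, with the median as a line. The untreated control pair has its median at 0.70, against -0.12, 0.10 and 0.27 in the other 3 pairs.

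The other pairs lay closer. The median difference of the first minus the second replicate was -0.12 for untreated TAF3 siRNA, 0.10 for control siRNA with doxorubicin and 0.27 for TAF3 siRNA with doxorubicin. Over all features the untreated control pair was not unusual, with r = 0.988 (over features, and features are no independent samples) and a median SD of 0.127 log2. For the 30 genes that SD was 0.495 in this pair and 0.102 to 0.200 in the others. What set this array apart was not tested. Values without it are given below for some, but not all, called and named results that use the untreated control group. Changes of IRF9, IRF1, ITGAM and PDGFRB, among others, come without such a value. So do the HERC5, OAS3 and EIF2AK2 differences in the doxorubicin response.

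**Figure D2:**
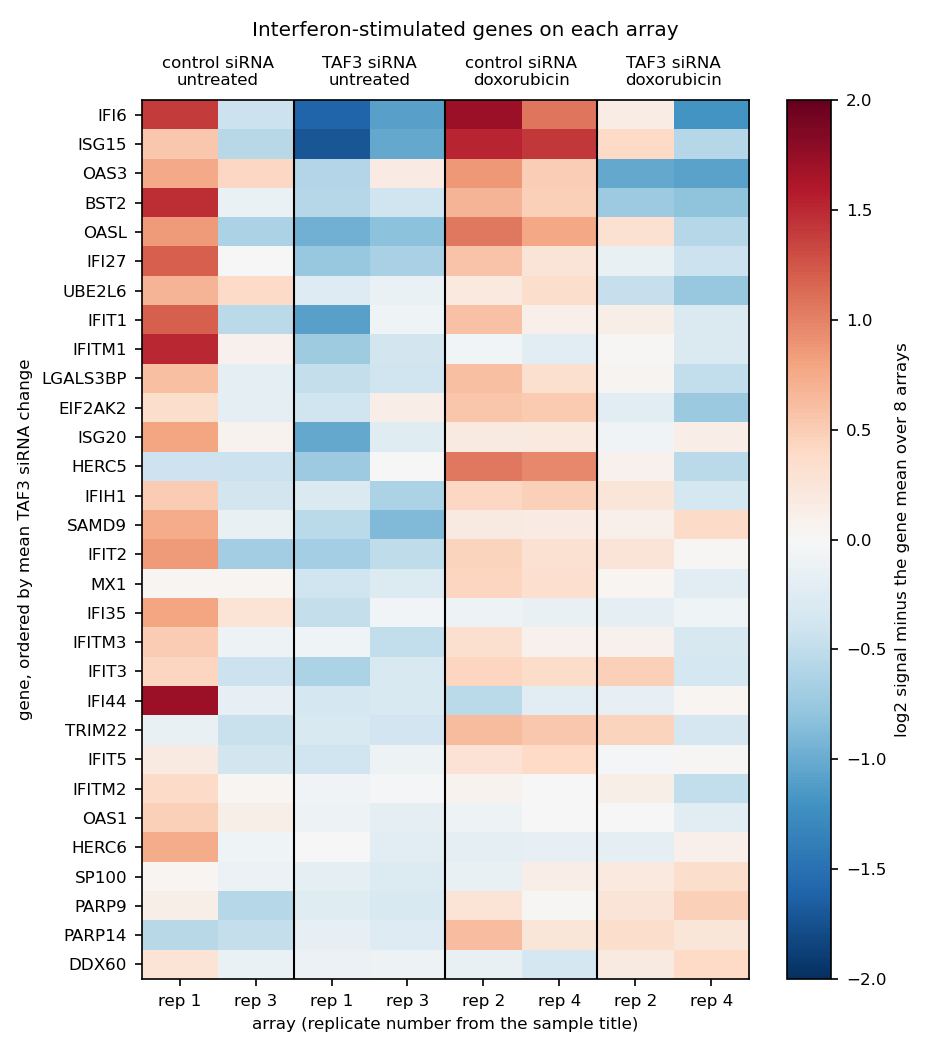
Log2 signal of the 30 measured genes (rows) on the 8 arrays (columns, by group and replicate number), each minus the gene's mean over the 8 arrays, with colour from blue (below) to red (above). The mean over the genes is 0.60 on untreated control replicate 1 and 0.41 and 0.30 on the control arrays with doxorubicin, against -0.19 on untreated control replicate 3 and -0.53 to 0.02 on the 4 TAF3 siRNA arrays.

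In cells without doxorubicin, the mean of the TAF3 siRNA arrays was below that of the control arrays in 28 of 30 genes, with a median log2 change of -0.59 against 0.01 over all features. None of the 30 passed limma at an adjusted p of 0.05, and neither did any of the 16348 features (0%, smallest adjusted p = 0.141). Without adjustment, 15 of 30 had a p under 0.05, against 12.1% of all features. Both TAF3 arrays lay below both control arrays in 17 of 30 genes, against 19.6% of all features, and above them in 1 of 30, against 21.3%. All 4 IFIT genes (median -0.57 log2), the 3 IFITM genes with BST2 (median -0.82) and the 5 RNA and translation enzymes OAS1, OAS3, OASL, ISG20 and EIF2AK2 were below 0, none called.

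The size of this shift depended on the control array. Measured against control replicate 1 the median was -0.94, with both TAF3 arrays below that control in 28 of 30 genes (34.7% of all features). Measured against replicate 3 it was -0.17, with both TAF3 arrays below in 17 of 30 (31.2% of all features). In limma fits without 1 array, the lone array of a group was assumed to vary like the other groups. Leaving out control replicate 3 gave 4 lower genes, BST2, IFI44, IFITM1 and IFI27, beside 16 features called in all. Leaving out control replicate 1 gave none. Leaving out TAF3 siRNA replicate 3 gave 2, ISG20 and OAS3, beside 313 features in all.

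**Figure D3:**
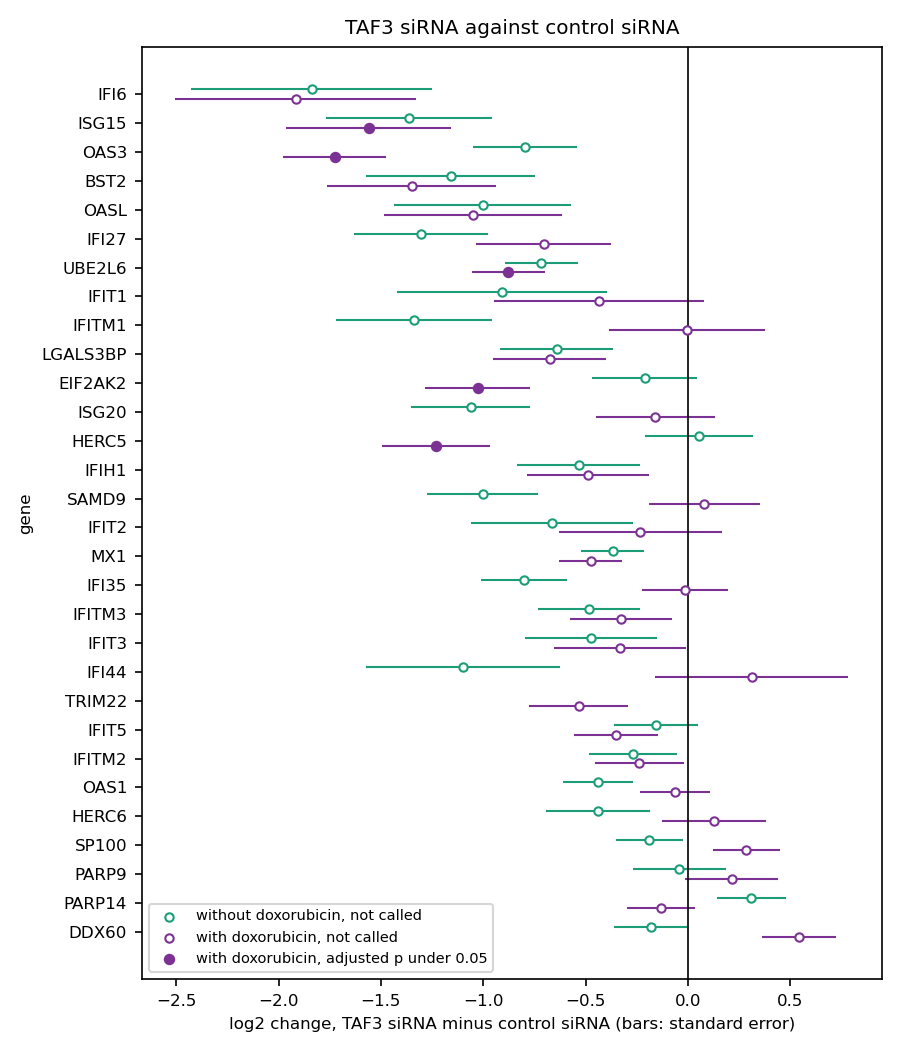
Log2 change with TAF3 siRNA against control siRNA for the 30 measured genes, untreated and under doxorubicin, with bars for the standard error of the limma fit (2 arrays per group). Filled points passed an adjusted p of 0.05: 5 genes under doxorubicin (OAS3, ISG15, HERC5, EIF2AK2 and UBE2L6), all lower, and none untreated. TRIM22 untreated, with both groups below background, is not drawn, and BST2 under doxorubicin is a fitted value with 1 group below background.

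Among the genes with the smallest p in untreated cells, OAS3, UBE2L6 and the signals of ISG15 come with the doxorubicin results below, and the others follow here. The ISG15 change was -1.36 ± 0.40 log2 (limma adjusted p = 0.289). IFI27, a small mitochondrial and nuclear-envelope protein, gave 363 and 164 with control siRNA and 95.4 and 108 with TAF3 siRNA. Its arrays did not overlap, and the change was -1.30 ± 0.33 log2 (limma adjusted p = 0.279). IFITM1, which hinders fusion of virus with the cell membrane, gave 527 and 204 against 114 and 161. Here too both TAF3 arrays were below both control arrays, with a change of -1.34 ± 0.38 log2 (adjusted p = 0.281). IFI35, which forms a complex with its relative NMI, gave 584 and 428 against 243 and 382. The change was -0.80 ± 0.21 (adjusted p = 0.281), with no overlap.

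ISG20, an exonuclease that degrades single-stranded RNA, gave 909 and 585 with control siRNA and 263 and 538 with TAF3 siRNA. The higher TAF3 array lay close under the lower control array, and the change was -1.06 ± 0.29 (adjusted p = 0.281). SAMD9, a cytoplasmic restriction factor of poxviruses, gave 407 and 228 against 168 and 148. Its change was -1.0 ± 0.27 (adjusted p = 0.281), again without overlap. The 2 genes whose mean was higher with TAF3 siRNA were PARP14 at 0.31 and HERC5 at 0.05 log2, neither called.

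The sizes of these untreated changes followed the control array kept. Without control replicate 1 the limma change was -0.71 for IFI27, -0.63 for IFITM1, -0.55 for IFI35, -0.70 for ISG20, -0.56 for SAMD9, -0.82 for ISG15, -0.57 for UBE2L6 and -0.62 for OAS3, with adjusted p between 0.824 and 0.842. Without control replicate 3 it was -1.90 for IFI27, -2.05 for IFITM1, -1.06 for IFI35, -1.42 for ISG20, -1.45 for SAMD9, -1.91 for ISG15, -0.86 for UBE2L6 and -0.97 for OAS3. All 8 stayed below 0 in both fits, and only IFI27 and IFITM1 (adjusted p = 0.0353 for each) passed, without replicate 3.

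Under doxorubicin, TAF3 siRNA lowered 5 of 30 genes and raised none, at a limma adjusted p of 0.05. Of all features, 7.28% were called lower and 6.53% higher in this comparison. The median change was -0.34 log2 over the 30 genes and 0.03 over all features, and 24 of 30 were below 0. The arrays did not overlap in 17 genes that were lower (29% of all features) and 3 that were higher (33.1%). For 7 genes with several measured probes, all probes had the same sign in 6, SP100 being the exception, and in 7 in untreated cells. The median was -0.40 against control replicate 2 alone and -0.26 against replicate 4 alone.

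Of these 5 genes, 3 belong to ISG15 conjugation. ISG15, the ubiquitin-like protein itself, gave 10954 and 10693 with control siRNA and 4837 and 2387 with TAF3 siRNA. Both TAF3 arrays were below both control arrays, and ISG15 fell by 1.56 ± 0.40 log2 (adjusted p = 0.0369). HERC5, the main ligase that joins ISG15 to new proteins, gave 3066 and 2928 against 1561 and 953. It fell by 1.23 ± 0.26 (adjusted p = 0.0204), and again its groups did not overlap. UBE2L6, the enzyme that carries activated ISG15 to the ligase, gave 1531 and 1753 against 979 and 725.

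UBE2L6 fell by 0.88 ± 0.18 log2 (limma adjusted p = 0.0172), without overlap. A second, dimmer UBE2L6 probe had a change of -0.16 in this comparison (unadjusted p = 0.301), so its probes gave changes of different size. The fourth measured gene of this group, HERC6, a relative of HERC5, gave 285 and 294 against 280.4 and 310.0, a change of 0.13 ± 0.26 that was not called. In untreated cells UBE2L6 gave 1989 and 1727 against 1099 and 1399. Its change there, -0.72 ± 0.18 (adjusted p = 0.273), had the smallest p of the 30 genes in that comparison, and the arrays did not overlap.

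**Figure D4:**
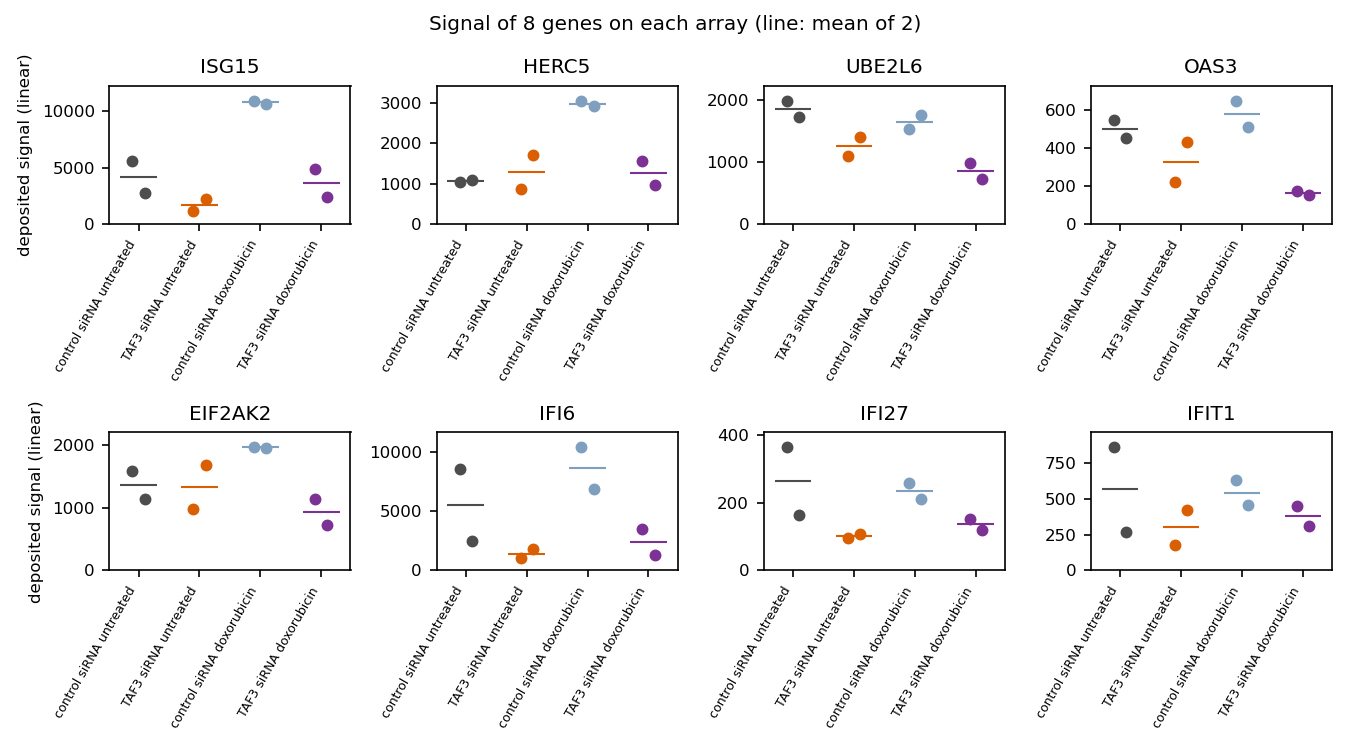
Deposited linear signal of ISG15, HERC5, UBE2L6, OAS3, EIF2AK2, IFI6, IFI27 and IFIT1 on each of the 8 arrays, by group, 1 point per array (lower replicate number on the left) with the mean of 2 as a line. For the first 5 genes both TAF3 siRNA arrays with doxorubicin lie under both control arrays with doxorubicin, and for IFI6, IFI27 and IFIT1 the 2 untreated control arrays lie far apart.

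The other 2 called genes act on RNA and translation. OAS3 makes the 2′-5′ oligoadenylate that switches on RNase L, and gave 651 and 511 with control siRNA against 173 and 153 with TAF3 siRNA. The groups did not overlap, and OAS3 fell by 1.73 ± 0.25 log2 (limma adjusted p = 0.00805). It had the smallest p of the 30 genes. EIF2AK2, also called PKR, phosphorylates the translation factor eIF2 alpha when it binds double-stranded RNA. Its signals were 1970.0 and 1962 against 1144 and 731, and it fell by 1.03 ± 0.26 (adjusted p = 0.034).

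In untreated cells neither gene was called. OAS3 gave 549.7 and 454 with control siRNA and 218 and 432 with TAF3 siRNA, a change of -0.79 ± 0.25 (adjusted p = 0.322) with TAF3 replicate 3 just under the lower control. EIF2AK2 gave 1591 and 1147 against 985 and 1682, and its groups overlapped (-0.21 ± 0.26). In the same group of RNA enzymes under doxorubicin, the change was -1.05 ± 0.43 for OASL, -0.16 ± 0.29 for ISG20 and -0.06 ± 0.17 for OAS1, and none was called. The difference in the siRNA effect between treatments was not called for either OAS3 (-0.93 ± 0.36 log2, adjusted p = 0.282) or EIF2AK2 (-0.82 ± 0.36, adjusted p = 0.341).

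Promoters are shown for the 4 genes with the smallest p over the TAF3 siRNA comparisons in untreated and in doxorubicin-treated cells (the average over both not counted), because the ISRE is the motif through which interferon acts. Promoter sequences, from 250 bases before to 50 after the start in RefSeq GRCh38.p14, matched 30 of the 37 genes. The ISRE core, GAAA followed by any 2 bases and a second GAAA, searched on both strands with overlapping matches counted apart, occurred in 21 of 30 (70%) and in 3.65% of 27305 promoters of the table. The related interferon gamma motif TTCNNNGAA occurred in 7 of 30 (23.3%) and in 7.88% of all. Of the 5 genes called lower under doxorubicin 4 held the ISRE core, and of 21 measured genes not called there 16 did. The 4 promoters follow, 5′ to 3′ on the gene's strand, with ISRE matches in capitals.
OAS3 (GRCh38.p14, chr12:112938224-112938523, plus strand, 2 matches): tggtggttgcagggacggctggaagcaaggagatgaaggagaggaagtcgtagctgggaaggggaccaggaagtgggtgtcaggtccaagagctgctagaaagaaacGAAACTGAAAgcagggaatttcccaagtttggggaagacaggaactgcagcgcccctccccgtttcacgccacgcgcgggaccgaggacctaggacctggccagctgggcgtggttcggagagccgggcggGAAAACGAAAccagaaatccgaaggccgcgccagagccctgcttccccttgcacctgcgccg
UBE2L6 (GRCh38.p14, chr11:57567886-57568185, minus strand, 0 matches): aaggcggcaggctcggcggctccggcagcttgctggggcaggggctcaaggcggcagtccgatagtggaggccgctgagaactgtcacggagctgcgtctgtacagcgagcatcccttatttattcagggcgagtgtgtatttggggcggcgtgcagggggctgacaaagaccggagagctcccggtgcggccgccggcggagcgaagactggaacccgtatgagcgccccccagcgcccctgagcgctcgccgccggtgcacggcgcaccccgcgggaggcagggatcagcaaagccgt
HERC5 (GRCh38.p14, chr4:88456869-88457168, plus strand, 3 matches): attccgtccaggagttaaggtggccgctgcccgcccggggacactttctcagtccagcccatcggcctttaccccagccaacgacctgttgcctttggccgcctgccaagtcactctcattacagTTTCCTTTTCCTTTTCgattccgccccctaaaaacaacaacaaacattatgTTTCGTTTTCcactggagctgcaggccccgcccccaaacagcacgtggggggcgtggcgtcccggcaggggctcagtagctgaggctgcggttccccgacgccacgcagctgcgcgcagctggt
EIF2AK2 (GRCh38.p14, chr2:37156931-37157230, minus strand, 1 match): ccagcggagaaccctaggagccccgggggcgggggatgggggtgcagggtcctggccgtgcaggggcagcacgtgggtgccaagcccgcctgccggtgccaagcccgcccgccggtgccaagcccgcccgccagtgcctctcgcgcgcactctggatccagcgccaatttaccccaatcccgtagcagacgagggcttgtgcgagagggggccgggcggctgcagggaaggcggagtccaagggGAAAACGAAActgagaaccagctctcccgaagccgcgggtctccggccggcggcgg
In HERC5 the matches read on the opposite strand, and those at -125 and -119 bases from the start overlap. The OAS3 matches begin at -143 and -12 and that of EIF2AK2 at -6. UBE2L6, which fell with the others, held no match to these letters in this window. A match is a description of the sequence and not a measured binding site.

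A further 3 genes came near the threshold under doxorubicin. BST2, or tetherin, which holds budding virus to the cell surface, gave 225 and 194 with control siRNA. Both TAF3 arrays, at 79.7 and 74.7, lay below background. This put BST2 at least 2.34-fold lower, a change that was not called (limma adjusted p = 0.0611). The bound sets the mean of the bright group against the background threshold of the dim arrays. IFI6, a small membrane protein that blocks flavivirus replication, gave 10380.1 and 6842 against 3451 and 1316. The 4 arrays did not overlap and the change was -1.92 ± 0.59 (adjusted p = 0.0617). MX1, a dynamin-like GTPase that traps viral nucleocapsids, gave 188 and 177 against 140.1 and 110.1, a change of -0.47 ± 0.15 (adjusted p = 0.0738).

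No IFIT or IFITM gene was called under doxorubicin. The 4 IFIT genes had a median change of -0.34 log2, from -0.44 for IFIT1 to -0.23 for IFIT2. The change was -0.01 for IFITM1, -0.24 for IFITM2 and -0.33 for IFITM3. IFITM2 and IFITM3 are close sequence relatives, so their probes may share signal. The RNA sensor IFIH1, or MDA5, had a change of -0.49 ± 0.30, and LGALS3BP, a secreted glycoprotein, one of -0.68 ± 0.28. Neither was called. The antiviral helicase DDX60 gave 126 and 109 against 158 and 169, higher on both TAF3 arrays, a change of 0.54 ± 0.18 (limma adjusted p = 0.0804).

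The 5 calls depended on single arrays and in part on the scaling. Leaving out TAF3 siRNA replicate 4, or either control siRNA doxorubicin array, left 0 of 30 called, with 155 features called in all without the first and 3 and 104 without control replicates 2 and 4. The 5 directions were kept in all 15 alternative settings, with changes from -1.96 to -1.54 for OAS3, -1.03 to -0.52 for UBE2L6, -1.54 to -0.92 for HERC5, -1.29 to -0.77 for EIF2AK2 and -2.04 to -1.08 for ISG15. EIF2AK2 was not called with median centring or on the uncorrected log2 signal, and ISG15 was not called without the filter on dim probes. TAF3 replicate 4 was the lower of the pair for 21 of 30 genes, and without it the ISG15 change was -1.08 and the HERC5 change -0.92. Without doxorubicin TAF3 replicate 2, 7 were called, beside 2454 features in all. Leaving out either untreated control array gave 8 calls (10.7% of all features), and the 2 groups fitted alone gave 9 (18.8%).

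With control siRNA, doxorubicin raised 4 of 30 genes and lowered none, while 9.07% of all features were called higher and 8% lower. The median change was 0.06 log2, against -0.02 over all features, and 12 of 30 genes were below 0. The arrays did not overlap for 7 genes that were higher (29.8% of all features) and 7 that were lower (33.8%). Without untreated control replicate 1 the median was 0.53, and without replicate 3 it was -0.23, so its sign turned on which untreated control array was kept.

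PARP14, a mono-ADP-ribosyltransferase that acts in cytokine signalling, gave 153 and 165 untreated and 372 and 295 with doxorubicin. It rose by 0.95 ± 0.17 log2 (limma adjusted p = 0.00747), with both doxorubicin arrays above both untreated ones. HERC5 gave 1039 and 1092 untreated, close together, and rose to the doxorubicin signals given above, by 1.42 ± 0.26 (adjusted p = 0.00894). ISG15 gave 5627 and 2744 untreated and rose by 1.47 ± 0.40 (adjusted p = 0.0374). TRIM22, a ubiquitin ligase that restricts retroviral transcription and is also known as a p53 target, gave 79.1 and 63.8 untreated. Both of these lay below background, and its signals with doxorubicin were 144 and 134. TRIM22 was at least 1.58-fold higher (adjusted p = 0.037).

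**Figure D5:**
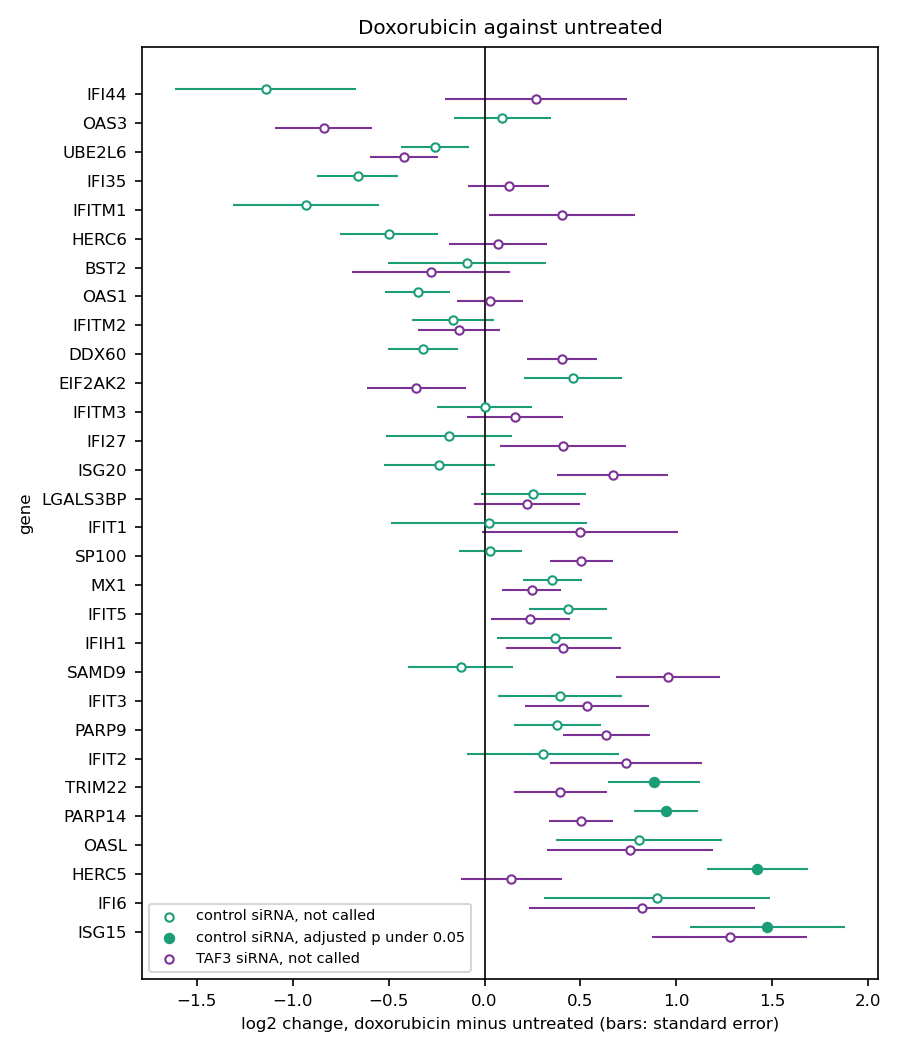
Log2 change with doxorubicin against untreated cells for the 30 measured genes, with control siRNA and with TAF3 siRNA, and bars for the standard error of the limma fit (2 arrays per group). Filled points passed an adjusted p of 0.05: TRIM22, PARP14, HERC5 and ISG15 with control siRNA, all higher, and none with TAF3 siRNA. TRIM22 with either siRNA and BST2 with TAF3 siRNA are fitted values with 1 group below background.

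Without untreated control replicate 1, 3 genes were called higher, ISG15 at 2.02, OASL at 1.54 and IFIT2 at 1.08 log2, while PARP14 (adjusted p = 0.0518) and HERC5 (adjusted p = 0.0535) missed the threshold in that limma fit. These 3 calls stood beside 5.93% of all features called. Without replicate 3, 7 of 30 were called, 2 higher and 5 lower, with 21 of 30 below 0 and 7.95% of all features called. ISG15 was then at 0.93 (adjusted p = 0.203), OASL at 0.07 and IFIT2 at -0.47. TRIM22 was called in neither of these fits. ISG15 was also not called on the log2 of the deposited signal, with median centring or without the filter on dim probes. Without doxorubicin replicate 2 or 4, 0 and 1 of 30 were called, beside 1.61% and 5.24% of all features.

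Some marker genes of other cell types moved with these results, and their values are limma changes. The leukocyte marker ITGAM rose by 1.56 ± 0.17 and CD14 by 0.61 ± 0.18 with doxorubicin (CD14 not called without untreated control replicate 1 or 3, adjusted p = 0.112 and 0.193), and ITGAM fell by 0.92 ± 0.17 with TAF3 siRNA under doxorubicin. PDGFRB, a fibroblast marker, rose by 0.85 ± 0.15 with doxorubicin and fell by 0.66 ± 0.15 with TAF3 siRNA under doxorubicin. On both untreated control arrays ITGAM (63.5 and 73.7) and PDGFRB (73.1 and 74.7) lay below background. Their changes with doxorubicin are therefore fitted values with 1 group below background. PDGFRB also lay below background on TAF3 doxorubicin replicate 4, at 78.6 against a threshold of 81.7. Of 7 leukocyte markers 6 had a probe and 4 were measured. After control siRNA, 2 of these 4 were below 0 with doxorubicin, neither called. HLA-DRA, 1 of these 2, gave 322.1 and 321.9 untreated and 238 and 202 with doxorubicin. The summed signal of the 6, background included, ran from 696 to 711 in untreated control cells, 527 to 618 with TAF3 siRNA, 763 to 821 with doxorubicin and 536 to 689.9 with both. The pan-leukocyte PTPRC and the T cell CD3E lay above background on none of 8 arrays, as did the fibroblast genes COL1A2 and DCN. The summed signal of the 4 fibroblast markers ran from 416 to 430.0, 429 to 439, 499 to 549.9 and 442 to 451 in the same order of groups. The part of such cells in these results was not tested.

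With TAF3 siRNA, doxorubicin gave no call among the 30 genes, and 4.66% of all features were called, 2.08% higher and 2.58% lower. Unadjusted limma p-values were under 0.05 for 8 of 30 genes, against 21.0% of all features. The mean was higher with doxorubicin in 25 of 30, with a median of 0.40 log2 against 0.01 over all features. Arrays did not overlap for 14 genes that were higher (24.6% of all features) and 3 that were lower (23.1%). The smallest p belonged to SAMD9, whose signals of 286 and 317 lay above both untreated TAF3 arrays, a change of 0.96 ± 0.27 (adjusted p = 0.0828).

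OAS3 was lower on both doxorubicin arrays with TAF3 siRNA, going from 218 and 432 untreated to 173 and 153 with doxorubicin, a change of -0.84 ± 0.25 (limma adjusted p = 0.0976). ISG15 gave 1177 and 2244 untreated, with a change of 1.28 ± 0.40 (adjusted p = 0.11). SP100, a nuclear body protein, gave 182 and 193 untreated and 256 and 261 with doxorubicin, a change of 0.50 ± 0.16 (adjusted p = 0.119). PARP14, at 198 and 211 untreated and 307 and 257 with doxorubicin, had a change of 0.50 ± 0.17 (adjusted p = 0.126). Leaving out either untreated control array brought SAMD9 past the threshold, and leaving out untreated TAF3 replicate 1 brought OAS3 past it.

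The difference between the siRNAs in the doxorubicin response was called for none of the 30 genes and for 0.0367% of all features, 0.0122% upward and 0.0245% downward. Unadjusted limma p-values were under 0.05 for 6 of 30 genes, against 14.8% of all features. The smallest p belonged to HERC5, at -1.28 ± 0.37 log2 (adjusted p = 0.172), where the response was 1.42 with control siRNA and 0.14 with TAF3 siRNA. With TAF3 siRNA, HERC5 gave 866 and 1708 untreated, which spanned the signals of 1561 and 953 with doxorubicin. Without untreated TAF3 replicate 1 this difference was called, at -1.64 (adjusted p = 0.0495). For ISG15 the response was 1.47 and 1.28, a difference of -0.20 ± 0.57 (adjusted p = 0.918), and in each treatment both TAF3 arrays lay below both control arrays. The median difference over the 30 genes was 0.09 log2, -0.30 without untreated control replicate 1 and 0.56 without replicate 3.

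Averaged over both treatments, TAF3 siRNA lowered 7 of 30 genes and raised none, against 6.01% of all features lower and 5.47% higher. The median was -0.46 log2 over the 30 genes and 0.02 over all features. All 4 TAF3 arrays lay below all 4 control arrays for 4 of 30 genes, against 3.93% of all features, and above them for 0 of 30, against 5.12%. The 7 were OAS3 (-1.26 ± 0.18, limma adjusted p = 0.0108), UBE2L6 (-0.80 ± 0.13, 0.0138), ISG15 (-1.46 ± 0.29, 0.0216), IFI6 (-1.88 ± 0.42, 0.0275), IFI27 (-1.0 ± 0.23, 0.0307), BST2 and MX1 (-0.42 ± 0.11, 0.0418). BST2 (adjusted p = 0.0311) has no measured average, because both TAF3 siRNA arrays with doxorubicin were below background.

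IFI6, IFI27, BST2 and MX1 were called only in this average. IFI6 gave 8586 and 2440.5 with control siRNA and 1051 and 1765 with TAF3 siRNA untreated, and IFI27 gave 257 and 210.3 against 153 and 118 under doxorubicin. In each of these the TAF3 arrays were all lower. BST2 gave 355 and 118 against 87.2 and 102 untreated, and MX1 134 and 134 against 98.9 and 113. Without untreated control replicate 1 only OAS3 (549.7 on that array, change then -1.17) and BST2 were called of the 30. Without either control doxorubicin array none was, without untreated control replicate 3 there were 12, and without TAF3 doxorubicin replicate 4 there were 2. MX1 was called in 5 of 14 alternative settings, and its call was lost on the log2 of the deposited signal, with median centring, with the replicate number as a block (adjusted p = 0.0519) and in 6 of 8 fits without 1 array. The counts called for the average in fits without 1 array stand here without the share of all features. They are not read as results about the 30 genes. The averaged comparison uses the same arrays as the separate ones and adds no new measurement.

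The ligands and the signalling chain were measured alongside. No interferon gene was called in any comparison. Of 17 listed type I interferon genes 6 were measured, and IFNB1, the interferon that most cell types can make, lay above background on none of 8 arrays, at 49.7 to 63.8. None of the 4 type II and III interferon genes was measured. All 9 receptor and JAK genes were measured. With control siRNA, doxorubicin raised IFNAR1 (1.13 ± 0.25 log2, limma adjusted p = 0.0165) and IL10RB, and lowered IFNAR2 (-0.77 ± 0.17, adjusted p = 0.0162) and IFNGR2. Over all features 9.07% were called higher and 8% lower. None of these 4 calls remained when either untreated control array was left out, IFNAR1 then being at 0.99 without replicate 1 (adjusted p = 0.103) and 1.26 without replicate 3 (0.0507), and IFNAR2 at -0.72 (0.0901) and -0.82 (0.0569).

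TAF3 siRNA under doxorubicin raised IFNGR2, a chain of the interferon gamma receptor, by 0.82 ± 0.15 log2 (limma adjusted p = 0.0139) and no other receptor gene. The change was 0.48 ± 0.20 for the kinase JAK1 and -0.57 ± 0.26 for TYK2, neither called. Of the STAT and IRF factors 7 were measured, and 1 of 7 was called lower with TAF3 siRNA under doxorubicin, against 7.28% of all features. It was IRF5, a factor of inflammatory gene induction, which gave 235 and 197 with control siRNA and 140.1 and 120.5 with TAF3 siRNA and fell by 0.64 ± 0.17 (adjusted p = 0.0427). STAT3 rose with doxorubicin in control cells by 1.60 ± 0.28 (adjusted p = 0.00727), and by 1.27 (adjusted p = 0.0533) without untreated control replicate 1. IRF7, which amplifies interferon production and is itself interferon-induced, was called lower in the average over treatments, at -1.11 ± 0.28 (adjusted p = 0.0366). Without untreated control replicate 1 the IRF7 average was -0.97 (adjusted p = 0.116) and without replicate 3 it was -1.25 (0.0614).

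IRF7 gave 568 and 400.5 with control siRNA and 132 and 334 with TAF3 siRNA untreated, and 909 and 542 against 427 and 273 under doxorubicin. In both treatments the TAF3 arrays were lower than the control arrays. IRF9, a DNA-binding partner of STAT factors, gave 1218 and 927 against 448 and 786 untreated, a change of -0.96 ± 0.26 (limma adjusted p = 0.281), and one of -0.17 ± 0.26 under doxorubicin. IRF1 had changes of -0.60 ± 0.27 and -0.36 ± 0.27, neither called.

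Among sensors and adaptors of foreign nucleic acid, 14 of 19 were measured. Doxorubicin with control siRNA raised 3 of them, STING1 (1.30 ± 0.36 log2, limma adjusted p = 0.0397), TLR3 (1.18 ± 0.23, 0.0106) and MAVS (0.82 ± 0.23, 0.0422), against 9.07% of all features called higher. TAF3 siRNA under doxorubicin lowered 3, which were these 3 genes, STING1 by 1.78 ± 0.36 (adjusted p = 0.0176), TLR3 by 1.13 ± 0.23 (0.0173) and MAVS by 0.89 ± 0.23 (0.0384), against 7.28% of all features called lower. The comparisons share the control doxorubicin arrays. STING1, the adaptor for DNA in the cytoplasm, gave 1084 and 544 untreated and 2008 and 2033 with doxorubicin after control siRNA. After TAF3 siRNA it gave 391 and 729.9 untreated and 735 and 427 with doxorubicin, so its highest signals were on the control doxorubicin arrays. The doxorubicin change of STING1 was 1.84 without untreated control replicate 1 (adjusted p = 0.0295) and 0.76 without replicate 3 (0.205). TLR3 was at 1.41 (0.0301) and 0.95 (0.0655) and MAVS at 1.04 (0.0648) and 0.60 (0.213) in the same fits.

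A further list of 51 interferon-induced genes outside the 37 had 36 measured. TAF3 siRNA under doxorubicin lowered 7 of 36 and raised none, against 7.28% of all features called lower and 6.53% higher, with a median of -0.25 log2. PARP10, a mono-ADP-ribosyltransferase, gave 332 and 321 with control siRNA and 101 and 70.6 with TAF3 siRNA, and fell by 1.86 ± 0.21 (limma adjusted p = 0.0044). The 70.6, on TAF3 replicate 4, lay below that array's background threshold of 81.7, so this size rests partly on background. PSME2 and PSME1, the subunits of the interferon-induced proteasome activator, fell by 1.02 ± 0.15 (adjusted p = 0.00832) and 0.98 ± 0.23 (0.0272). In untreated cells the list's median was -0.17, with 27 of 36 below 0 and none called. With control siRNA, doxorubicin raised 5 of 36, led by the peptide transporter TAP1 at 2.37 ± 0.34 (adjusted p = 0.00353), and lowered 1, against 9.07% of all features higher and 8% lower. Without untreated control replicate 1 or 3 TAP1 was at 2.49 and 2.25, called in both fits. TAP1 also rose with TAF3 siRNA, by 1.77 ± 0.34 (adjusted p = 0.0243).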

How the data were processed

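The 8 arrays fell into 4 groups of 2 by their titles, with untreated arrays numbered 1 and 3 and doxorubicin arrays 2 and 4. Per the labels, 200 ng of total RNA was primed with oligo(dT) and labelled with biotin. The authors deposited intensity values on a linear scale, 1 per probe, for which the submitters' processing notes name BeadStudio. Every array has the same median signal, 73.9, so the deposited values had already been scaled between arrays. The lowest signal is 36.3, so no background had been subtracted. The uncorrected log2 signal and median centring, among the alternatives below, both keep a common median. Their counts over all features were close where given below. A second deposited table holds detection p-values, written as 1 minus p and in columns that name no sample, so only the number of arrays detecting each probe was taken from it. The 8 signal columns beside them were left out. The background threshold of an array was set from its labelled signals, between probes detected on no array and on all 8, bounds at most 0.194 apart.

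Signals were background-corrected (normexp, offset 50), quantile normalized and put on the log2 scale. The filter kept 20628 probes that had a detection p below 0.05 on 2 arrays or more, and the brightest kept probe stood for a gene, which gave 16348 features. Of 48803 probes 28098 had 1 gene symbol, 13 several and 20692 were not listed, and 28059 were found in a RefSeq table of GRCh38.p14. A single fit of the 4 groups used lmFit and eBayes of limma 3.58.1, run in R 4.3.3 (4 residual and 4.98 prior degrees of freedom), with Benjamini-Hochberg adjustment over all features in each of 6 comparisons. Values written a ± b are log2 changes with standard errors from 2 arrays per group. The number of arrays limits the precision. Whether the arrays of 2 groups overlapped was judged on the normalized log2 values and not on the deposited signals. The fit was also run on simulated data drawn without any array effect, so that run cannot speak to a shift of a single array.

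The genes, the other lists and the rule for named genes were chosen with earlier results of these data known. Values on every array are given for called genes, for the 8 genes with the smallest p in each TAF3 siRNA comparison and the 4 in each doxorubicin comparison. Of the other lists, genes with the smallest p, up to 4 for each list and comparison, were named, with IRF9, IRF7, IRF1, IFNAR1, IFNAR2, JAK1, TYK2, IFNB1 and TAF3. Alternatives were the uncorrected log2 signal, median centring, an offset of 16, no filter on dim probes, the mean of a gene's probes, the compared groups alone, the replicate number as a block, and leaving out each array. Protein sequences were not used here, and 1 gene fixed for naming is not reported here.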

Additional observations from a re-analysis of the deposited data

Results flagged for a closer look

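On the normalized log2 values of 4 genes, both arrays of a group moved one way in one setting and oppositely in the other. The difference between settings was tested in the limma fit and passed for none of the 4 genes. On the deposited signal, doxorubicin and untreated arrays overlapped for IFI44 and DDX60 with control siRNA and for IFITM1 with TAF3 siRNA. The doxorubicin change of IFI44 was -1.14 log2 with control siRNA and 0.27 with TAF3 siRNA, a difference of 1.41 (adjusted p = 0.373). Its TAF3 siRNA change was correspondingly -1.10 untreated and 0.31 under doxorubicin, the same difference of 1.41, and IFI44 was high on untreated control replicate 1 alone. For IFITM1 the doxorubicin change was -0.93 with control siRNA and 0.40 with TAF3 siRNA, a difference of 1.33 (adjusted p = 0.303). For DDX60 it was -0.32 and 0.40, a difference of 0.72 (adjusted p = 0.248). For SP100 the TAF3 siRNA change was -0.19 untreated and 0.28 under doxorubicin, a difference of 0.47 (adjusted p = 0.389). Without untreated control replicate 1 these differences were 0.47 for IFI44, 0.62 for IFITM1, 0.52 for DDX60 and 0.40 for SP100, with adjusted p between 0.544 and 0.647.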

How the results depend on the processing

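No called change of the 30 genes reversed under the alternatives. Changes that were not called turned sign under at least 1 alternative in 14 genes for doxorubicin with control siRNA, 8 with TAF3 siRNA, 7 for TAF3 siRNA untreated, 8 under doxorubicin, 15 for the difference in response and 5 for the average. For doxorubicin with control siRNA, 4 of 30 were called, 2 without the filter on dim probes, and 0 to 7 with 1 array left out, where the median ran from -0.23 to 0.53. For doxorubicin with TAF3 siRNA the count ran from 0 to 1 and the median from 0.19 to 0.47. For TAF3 siRNA without doxorubicin the count ran from 0 to 4 and the median from -0.94 to -0.17. For TAF3 siRNA with doxorubicin, 5 were called, 9 with the 2 groups compared alone and 0 to 8 with 1 array left out, and the median ran from -0.57 to -0.17. For the difference in response the count ran from 0 to 1 and the median from -0.30 to 0.56. For the average over treatments, 7 were called, 0 to 12 with 1 array left out, and the median ran from -0.71 to -0.27. The number of all features called also changed between settings, so these counts are not read as results about the 30 genes. The causes were not tested. Scaling also moved the split over all features. On the log2 of the deposited signal, doxorubicin with control siRNA called 1498 higher and 835 lower (1483 and 1308 as reported), doxorubicin with TAF3 siRNA 203 and 468 (340 and 421), and the average 821 and 582 (894 and 982). Median centring gave 1492 and 868, 212 and 493, and 806 and 603.

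The replicate numbers name arrays and are not stated to pair them. Deviations of same-numbered arrays correlated at -0.03 untreated and 0.21 under doxorubicin over all features. Over the 30 genes the values were -0.19 untreated and 0.43 under doxorubicin. With the replicate number as a block, 0 genes were called for TAF3 siRNA untreated and 6 under doxorubicin. The block fit called 0 for the difference in response and 8 for the average, where MX1 was no longer called. The share of all features called with this block is not given here, so these counts are not read as results about the 30 genes. Groups of 2 arrays near the background threshold limit what can be said of dim genes such as TRIM22, BST2 and OAS1.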
